A study of Arabidopsis thaliana with 23 samples.

Results

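The genes described here were higher in axillary tissue of brc1-2 mutants and in axillary tissue of decapitated wild-type plants than in intact wild-type (WT) plants. They were chosen by their own measured values. For each gene, L was the log2 ratio of the mean levels in 2 groups after 0.25 was added to each mean, with levels in CPM (counts scaled to a library total of 1000000). A member had L of at least 1 for brc1-2 over intact WT and for decapitated WT over intact WT, and a mean of at least 1 CPM in an axillary group. It also had L above -0.8 for rac-GR24 over DMSO in seedlings. The rule found 82 members among 32833 genes, of which 19097 reached 1 CPM in an axillary group. All 82 are protein-coding in the reference gene table, 39 of them have a symbol there, and the other 43 are named by identifier.

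All plants were Arabidopsis thaliana in the Col-0 background. The axillary samples, each of axillary buds together with the axils of the rosette leaves below them, came from intact WT plants, from intact plants with the brc1-2 allele of BRC1, and from decapitated WT plants whose main shoot had been cut off under the lowest cauline node early in bolting. The labels do not give the time from decapitation to harvest. The seedlings were WT, kept for 7 days on plates with 2.5 µM rac-GR24, a synthetic strigolactone analogue, or with its solvent DMSO. Each of these 5 groups had 3 RNA-seq libraries, and the 8 CUT&Tag samples of the series were not analysed here. That the brc1-2 columns are 3 separate samples is an assumption, since 2 of them carry the same replicate number and neither is tied to a sample title. The counts of these 2 columns differed as much as those of other pairs within a group, with a mean chi-square per gene of 4.58, against 3.02 to 6.89 for the other pairs of axillary libraries. The labels leave it unsaid if replicate libraries are from different plants. A p-value here therefore reflects variation among libraries, part of which may be technical.

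BRANCHED1 (BRC1) is a TCP transcription factor that acts in axillary buds and holds back their outgrowth. Strigolactones, made largely in roots and stem, promote its expression, whereas removal of the shoot tip ends apical dominance and releases the buds beneath. A bud that leaves dormancy re-enters the cell cycle, builds new plastids and organs and, in a rosette axil after the floral transition, goes on to form leaves and flowers.

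BRC1 itself (AT3G18550, TAIR10 chromosome 3, 6383289 to 6385815) had 392, 373 and 423 counts in the intact WT libraries and 2, 4 and 2 counts in the brc1-2 libraries. The decapitated WT libraries held 95, 99 and 77 counts, between the other groups and without overlap with either. Total counts ran from 47462342 to 61228766 per axillary library and from 31209344 to 44442493 per seedling library. The 39 genes listed for meristem, organ boundary and polarity summed to between 896 and 902 CPM in brc1-2 and to between 942 and 1010 CPM in decapitated WT, which overlapped intact WT with at least 981 CPM in each library. The 10 leaf photosynthesis genes summed to 35600 to 35800 CPM in intact WT, 45500 to 45900 CPM in brc1-2 and 28900 to 29600 CPM in decapitated WT, so this marker sum differed between the groups without overlap. In whole tissue, a change in the number of cells of one type and a change in RNA per cell cannot be told apart.

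Most members stood between 2-fold and 4-fold above intact WT. The median L was 1.25 in brc1-2, with a range from 1.01 to 6.19, and 1.36 after decapitation, with a range from 1.01 to 2.92. The median L of all genes at 1 CPM or more was 0.00 in both comparisons. On this log2 scale both values were under 2 in 64 members, and in 36 members they lay within 0.2 of each other. L was larger in brc1-2 for 39 members and larger after decapitation for 43. Both comparisons use the same intact WT libraries, so these paired values are not independent.

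**Figure D1:**
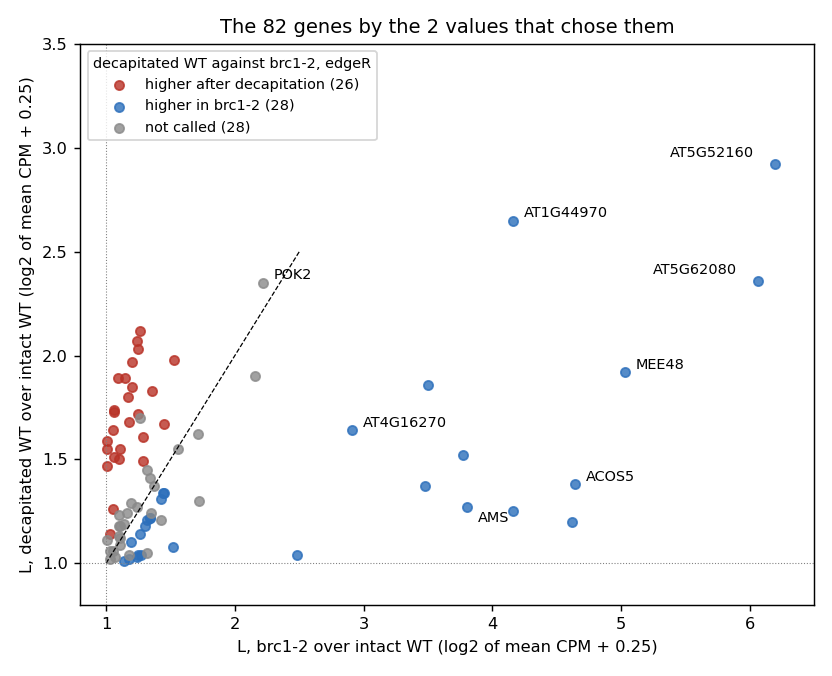
Each point is 1 of the 82 members, with L for brc1-2 on the horizontal axis and L for decapitated WT on the vertical axis, both over intact WT on a log2 scale. Dotted lines mark the limit of 1, the dashed line marks equal values, and colour gives the edgeR call for decapitated WT against brc1-2. Most points lie between 1 and 2 on both axes, and a spread of blue points reaches 6.19 in brc1-2 without passing 2.92 after decapitation.

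Because the rule used both comparisons with intact WT, their tests are given as description and nothing is read from them. In edgeR's quasi-likelihood fit over 21539 genes, all 82 members were called higher in brc1-2, where the background was 30.4% of genes tested, and all 82 in decapitated WT, where it was 29.4%. The backgrounds for lower calls, with 0 members, were 30.5% and 33.5%. Of all genes tested, 20.3% were higher in both. In each comparison the 3 libraries of the higher group all lay above the 3 intact WT libraries for 82 members, which held for 33.6% of genes tested in brc1-2 and for 32.9% after decapitation. Just inside the limit on brc1-2 lay AT5G07810, ATK1 and AT1G49870, each with L of 1.01. Just outside lay NIH and GDPD2, both under 1 and rounding to 1.00, and PDE312 at 0.99. For decapitation, AT3G14172 at 1.01, AT2G33435 at 1.02 and LINC3 at 1.02 were inside, and NET1D at 0.98, DML2 at 0.98 and XIJ at 0.97 were outside. The limit on mean level kept SWEET7, at 1.14 CPM in its highest group, and left out AT5G38820, at 0.781 CPM.

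The comparison that the rule did not use directly is decapitated WT against brc1-2. It asks how the level that a member reached in one condition compares with the level it reached in the other. Of the 82 members, 26 were higher after decapitation, 28 were higher in brc1-2, and 28 did not pass the edgeR threshold of 0.05. The backgrounds were 24.4% and 24.1% of the 21539 genes tested, against 26 and 28 of 82 here. All 82 members were tested, and each had the required count in all 3 brc1-2 and all 3 decapitated WT libraries. The median log2 change over the members was -0.02, and over all genes tested 0.00. Among the members called, 0 were higher after decapitation by 2-fold or more (background 1.94% of genes tested) and 13 were higher in brc1-2 by 2-fold or more (background 3.7%), reaching a log2 change of -3.96. The rule bounded both levels from below against the same intact WT libraries, and the difference between these 2 counts was not tested. A mean of 1 CPM was reached by 80 members in brc1-2 and by 73 after decapitation. Some members thus met that limit through 1 of these groups only, and for them the choice favoured the direction of the difference. Every member under 1 CPM after decapitation was among the 13 higher in brc1-2 by 2-fold or more, and they made up most of the 13. The count of 13 is therefore not read against its background. The libraries did not overlap for 29 members with decapitated WT above, a pattern seen in 30.1% of genes tested, and for 26 with brc1-2 above, seen in 24.3%.

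**Figure D2:**
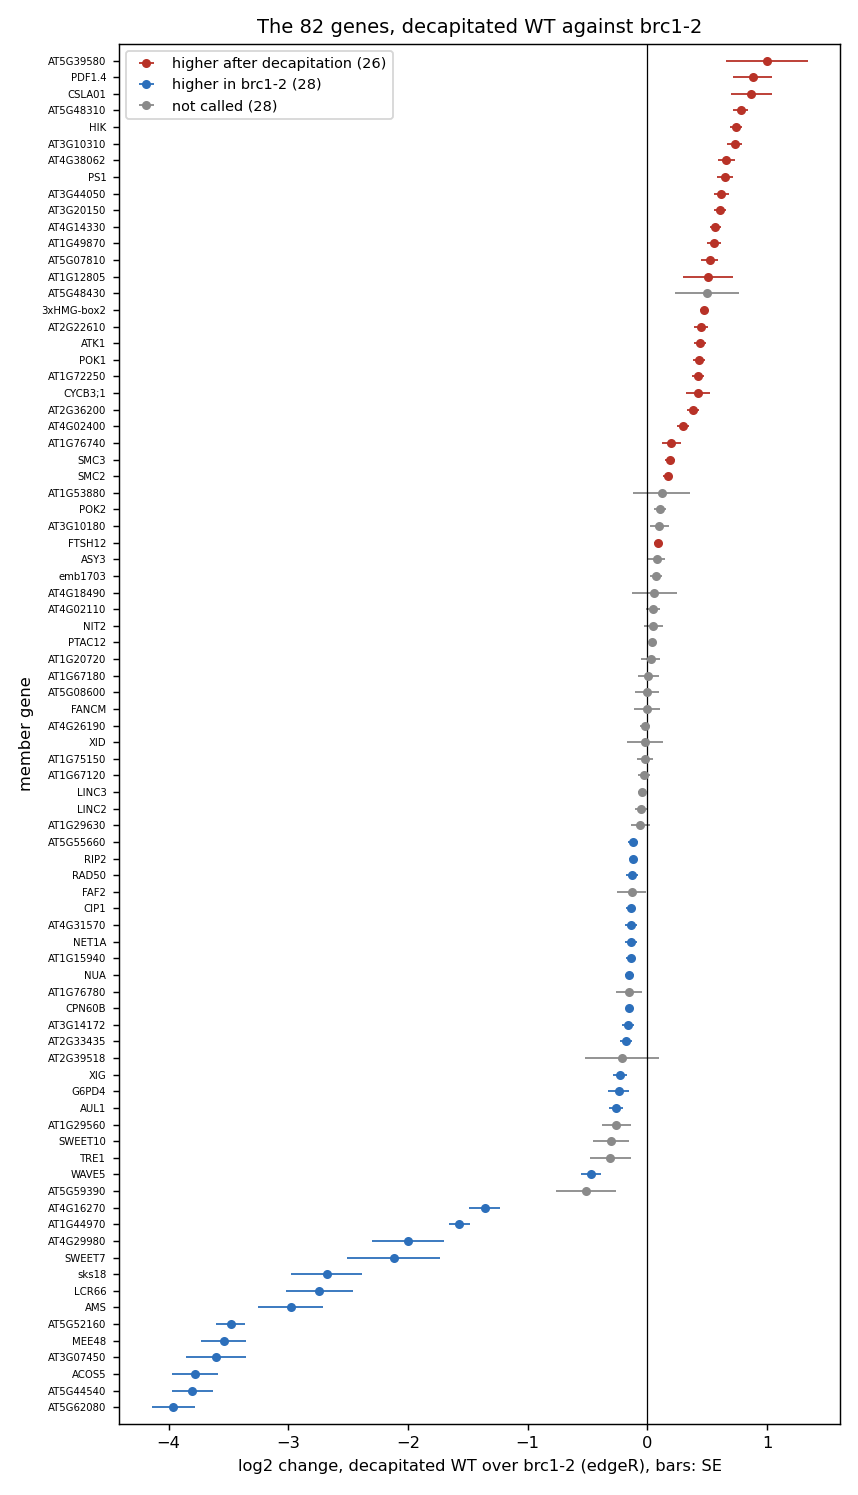
Each row is 1 of the 82 members and the horizontal axis gives its log2 change in decapitated WT over brc1-2 from edgeR, with bars for the SE (3 libraries per group). Red points were called higher after decapitation (26), blue points higher in brc1-2 (28) and grey points neither (28); the blue tail reaches -3.96, while the highest red point is at 1.00.

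Of the 5 members listed for mitosis and cytokinesis, 4 were higher after decapitation than in brc1-2. HIK (HINKEL, AT1G18370, TAIR10 chromosome 1, 6319450 to 6324378), a kinesin of the phragmoplast that is needed to finish cytokinesis, had 18.6, 18.5 and 19.1 CPM in intact WT. It had 44.7, 41.4 and 44.1 CPM in brc1-2 and 70.3, 70.2 and 81.3 CPM in decapitated WT. The 3 groups formed 3 separate steps with no overlap. HIK was higher after decapitation than in brc1-2 by 0.74 ± 0.05 (log2, SE, edgeR adjusted p = 2.5e-13). An SE given here was calculated back from the edgeR test statistic.

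3xHMG-box2, an HMG-box protein that binds mitotic chromosomes, followed the same steps, with 42.4, 43.2 and 44.4 CPM in intact WT, 99.9, 97.7 and 98.5 CPM in brc1-2 and 137, 142 and 140 CPM in decapitated WT. Its log2 change between the last 2 groups was 0.47 ± 0.03 (edgeR adjusted p = 8e-13). Another gene covers 19.1% of its exon bases. The sources used here do not state if counting was strand-specific, so in overlaps of this kind the reads of 2 genes cannot be told apart. CYCB3;1, a B-type cyclin, had 3.48, 3.40 and 3.48 CPM in intact WT, 8.58, 7.68 and 7.01 CPM in brc1-2 and 9.99, 9.34 and 12.4 CPM in decapitated WT. It differed by 0.42 ± 0.10 between brc1-2 and decapitated WT (edgeR adjusted p = 0.0012).

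POK1 and POK2 are kinesins that orient the phragmoplast toward the division site. POK1 had 27.6, 27.9 and 29.8 CPM in brc1-2 and 36.9, 38.8 and 41.1 CPM in decapitated WT, with 9.31, 10.5 and 9.21 CPM in intact WT. The groups did not overlap, and the log2 change from brc1-2 to decapitated WT was 0.43 ± 0.05 (edgeR adjusted p = 1.4e-07). POK2 (AT3G19050, TAIR10 chromosome 3, 6577724 to 6590253) had 12.4, 12.1 and 12.0 CPM in intact WT, 55.6, 59.0 and 58.2 CPM in brc1-2 and 57.4, 61.6 and 70.5 CPM in decapitated WT. The brc1-2 and decapitated libraries of POK2 overlapped, and its change of 0.11 ± 0.05 was not called (edgeR adjusted p = 0.086). Without decapitated WT library 1 it was called, at 0.17 (adjusted p = 0.01). L of POK2 over intact WT, 2.22 in brc1-2 and 2.35 after decapitation, was the largest of these 5 members in both comparisons. At the level of CPM per kb of exon, 3xHMG-box2 stood at 60.7 in brc1-2, HIK at 12.5, POK2 at 6.65, POK1 at 4.17 and CYCB3;1 at 3.85.

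The list holds 42 genes of mitosis and cytokinesis, all of them tested. In decapitated WT against brc1-2, 37 of the 42 were higher by edgeR (background 24.4% of genes tested), with a median log2 change of 0.63. The other 5 had log2 changes from 0.00 to 0.16. DESeq2 also called 37 higher, and at an unadjusted p under 0.05 edgeR had 40 higher; neither had a lower gene. Over intact WT, 38 of the 42 were higher in brc1-2 (background 30.4%), with a median log2 change of 0.39. All 42 were higher after decapitation (background 29.4%), with a median of 1.06. The 5 members in the list were chosen by both of these comparisons, so their calls add nothing here. CDC20.1, an activator of the anaphase-promoting complex, is an example that is no member, with mean levels of 30.8, 57.8 and 104 CPM in intact WT, brc1-2 and decapitated WT. The summed level of the list was 658 to 673 CPM in intact WT, 1040 to 1050 CPM in brc1-2 and 1540 to 1630 CPM in decapitated WT. Of the 35 genes for DNA replication and histones, none is a member. By edgeR 20 of them were higher after decapitation than in brc1-2 and 0 were lower (1 lower at an unadjusted p under 0.05, and 0 by DESeq2).

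Other members have annotated roles on chromosomes, the spindle and the nuclear envelope. ATK1, a minus-end-directed spindle kinesin, had 27.0, 25.6 and 24.8 CPM in brc1-2 and 35.1, 34.9 and 36.9 CPM in decapitated WT, against 11.6, 13.1 and 13.3 CPM in intact WT. It was higher after decapitation than in brc1-2 by 0.44 ± 0.05 (edgeR adjusted p = 7.9e-08). PS1 (PARALLEL SPINDLE 1), which sets spindle orientation in male meiosis, was higher by 0.65 ± 0.07 (edgeR adjusted p = 4.2e-09), with 12.2 to 12.8 CPM in the brc1-2 libraries and 19.7 to 20.7 CPM in the decapitated ones. SMC2, a condensin subunit, and the gene that the reference lists as SMC3, with CAP-C and SMC4 among its synonyms, were higher by 0.17 ± 0.04 and 0.19 ± 0.04 (edgeR adjusted p = 0.0017 and 0.00077).

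ASY3, a protein of the meiotic chromosome axis, had 16.2, 16.9 and 16.3 CPM in brc1-2 and 16.3, 16.8 and 19.9 CPM in decapitated WT. FANCM, a helicase that limits meiotic crossovers, had a log2 change of -0.00 ± 0.11, and LINC2 and LINC3, lamina-like proteins of the nuclear periphery, had -0.05 ± 0.05 and -0.04 ± 0.04, none of them called by edgeR. RAD50, which acts in repair of double-strand breaks, was higher in brc1-2 by a small margin, with a log2 change of -0.13 ± 0.05 (edgeR adjusted p = 0.024), and that call was lost without decapitated WT library 1 (-0.09, adjusted p = 0.15) or brc1-2 library 2a (-0.11, adjusted p = 0.098). NUA, a filament protein of the nuclear pore basket, had 41.7, 40.4 and 42.7 CPM in intact WT, 116, 111 and 111 CPM in brc1-2 and 101, 98.3 and 110 CPM in decapitated WT. Its log2 change was -0.15 ± 0.04 (edgeR adjusted p = 0.00074). A neighbouring gene overlaps 10.5% of the NUA exon bases.

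CIP1, a coiled-coil protein found through its interaction with COP1, NET1A, an actin-binding protein at the plasma membrane, and RIP2, a partner of ROP GTPases, had mean levels of 110, 67.1 and 93.7 CPM in brc1-2 and 102, 61.9 and 87.9 CPM in decapitated WT. The means in intact WT were 43.4, 24.4 and 34.4 CPM. Their log2 changes from brc1-2 to decapitated WT were -0.14, -0.14 and -0.12, each called by edgeR (adjusted p = 0.0046, 0.01 and 0.0052), and the NET1A call was lost without decapitated WT library 2 (adjusted p = 0.12). The myosin XIG and the SCAR/WAVE family gene WAVE5 differed by -0.23 ± 0.06 and -0.47 ± 0.08 (edgeR adjusted p = 0.00083 and 3.2e-05), while the myosin XID did not pass, at -0.02 ± 0.15. Another gene overlaps 35% of the WAVE5 exons. AT1G67120, midasin (MDN1), an AAA ATPase of ribosome assembly and the longest member at 16614 exon bases, had 32.4, 34.2 and 32.8 CPM in intact WT. It had 103, 98.7 and 93.3 CPM in brc1-2 and 88.6, 92.2 and 112 CPM in decapitated WT, groups that overlap, and its log2 change of -0.03 ± 0.05 was not called. Without decapitated WT library 3 it was called lower, at -0.13 (edgeR adjusted p = 0.0035).

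Plastid proteins were among the most abundant members. CPN60B (AT1G55490, TAIR10 chromosome 1, 20715563 to 20719261), a subunit of the plastid chaperonin that folds Rubisco, had 427, 433 and 427 CPM in intact WT, 1050, 1050 and 1060 CPM in brc1-2 and 976, 969 and 962 CPM in decapitated WT. Per kb of exon its mean was 414 CPM in brc1-2, the highest of the members. The step from brc1-2 to decapitated WT was small and exceeded the spread of the libraries, at -0.15 ± 0.02 (log2, edgeR adjusted p = 7.7e-06). PTAC12 (HEMERA), a component of the plastid transcription machinery and of phytochrome signalling, had 70.2, 69.8 and 71.1 CPM in intact WT, 152, 155 and 149 CPM in brc1-2 and 159, 158 and 161 CPM in decapitated WT. Its libraries did not overlap between the last 2 groups, yet its change of 0.04 ± 0.03 was not called by edgeR (adjusted p = 0.26). FTSH12, a plastid envelope protein of the FtsH family, had means of 75.2, 154 and 166 CPM in the same order, and its log2 change of 0.09 ± 0.03 (edgeR adjusted p = 0.022) was lost without decapitated WT library 1 or brc1-2 library 2a or 2b (adjusted p = 0.071, 0.088 and 0.078).

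**Figure D3:**
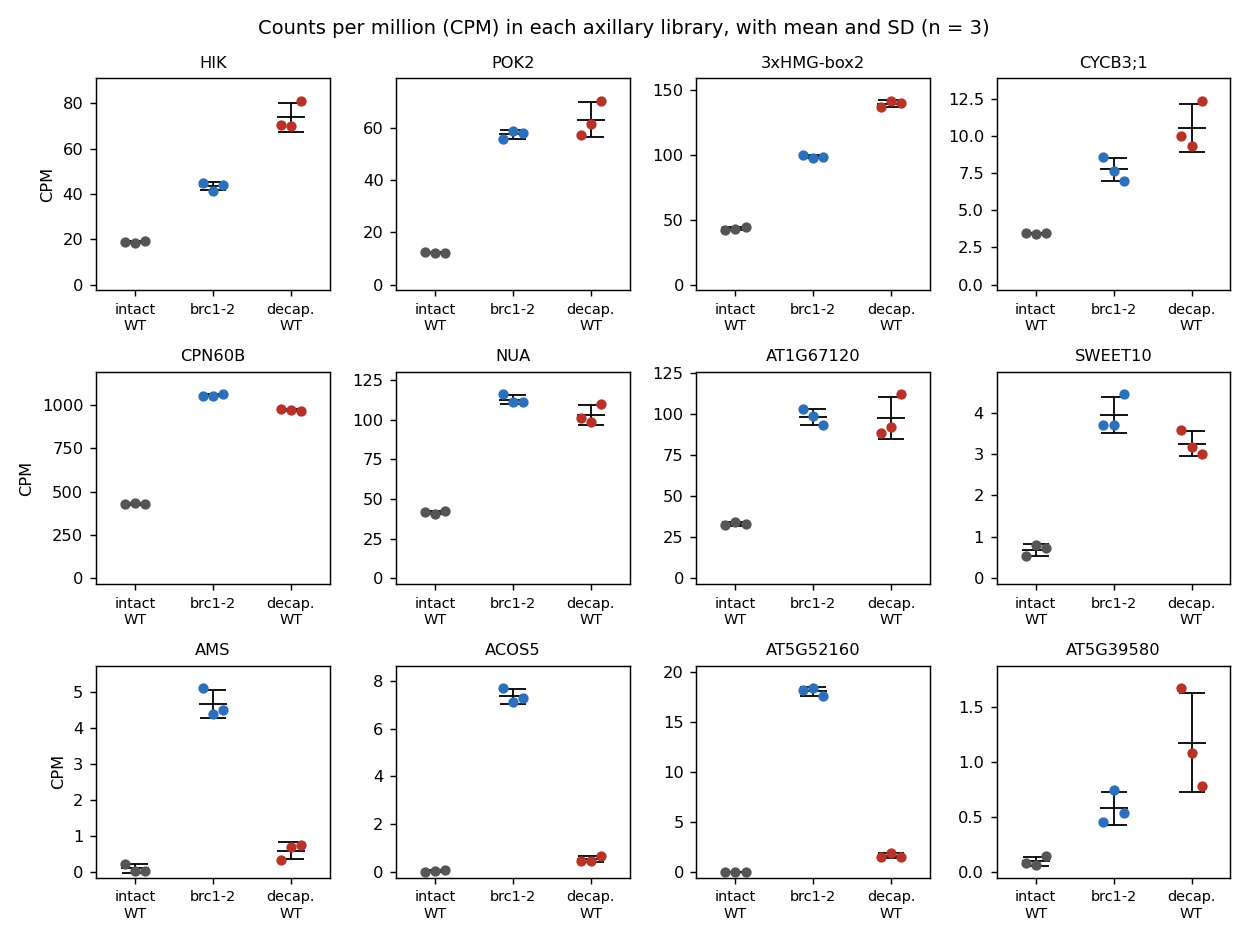
CPM of 12 members in each of the 9 axillary libraries; points are libraries, and black marks give the mean and SD of 3 libraries. HIK, 3xHMG-box2 and CYCB3;1 step up from intact WT through brc1-2 to decapitated WT, CPN60B and NUA are slightly lower after decapitation than in brc1-2, and AMS, ACOS5 and AT5G52160 are high in brc1-2 and low in the other groups.

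A set of members was close to absent from intact WT, low after decapitation and far higher in brc1-2. Except for AT5G52160 and AT5G62080, these members met the limit of 1 CPM only through brc1-2. Their order of brc1-2 above decapitated WT was thus partly set by the choice. AT5G52160 (TAIR10 chromosome 5, 21195044 to 21195763) had 0 counts in all 3 intact WT libraries, 18.2, 18.4 and 17.6 CPM in brc1-2 and 1.49, 1.93 and 1.5 CPM in decapitated WT. Against a floor of 3 counts over the intact WT group, this is at least 975-fold higher in brc1-2 and at least 89.2-fold higher after decapitation. This floor takes each count as an independent fragment, which it may not be. The log2 change of decapitated WT against brc1-2 was -3.48 ± 0.12 (edgeR adjusted p = 1.3e-18).

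Known anther genes belong to this set. AMS (ABORTED MICROSPORES), a bHLH transcription factor of the tapetum, had 0.237, 0.0348 and 0.0368 CPM in intact WT, 5.10, 4.38 and 4.49 CPM in brc1-2 and 0.335, 0.707 and 0.758 CPM in decapitated WT. ACOS5, an acyl-CoA synthetase of sporopollenin synthesis, had 0.0198, 0.0348 and 0.110 CPM, then 7.69, 7.09 and 7.27 CPM, and 0.484, 0.477 and 0.674 CPM in the same order. In both genes all 3 brc1-2 libraries stood far above the rest, and the decapitated libraries stood slightly above intact WT. For AMS the counts were 12, 2 and 2 in intact WT and 18, 40 and 36 in decapitated WT. Another gene covers 12.0% of the AMS exon bases. The log2 changes of AMS and ACOS5 from brc1-2 to decapitated WT were -2.98 ± 0.27 and -3.78 ± 0.19 (edgeR adjusted p = 2.2e-10 and 1.2e-15). Both genes met the limit on mean level only through brc1-2, so the choice favoured this direction.

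These 2 genes are the members among the 16 genes listed for tapetum and anther. Of the 16, 13 were lower in decapitated WT than in brc1-2 by edgeR and by DESeq2, with a median log2 change of -3.52, and 0 were higher by either, also at an unadjusted p under 0.05. The background for lower calls by edgeR was 24.1% of genes tested. Over intact WT, 15 were higher in brc1-2 (background 30.4%) and 8 were higher after decapitation (background 29.4%). AMS and ACOS5 were chosen by both comparisons with intact WT, so their calls add nothing here. The summed level of the list was 34.7 to 37.5 CPM in intact WT, 77.3 to 79.9 CPM in brc1-2 and 40.5 to 45.5 CPM in decapitated WT. The tapetal regulator MS1 and the hydroxylase CYP703A2 had 0 counts in intact WT and decapitated WT and means of 0.213 and 0.613 CPM in brc1-2. Of the 22 tested floral identity genes, 14 were lower in decapitated WT than in brc1-2 (background 24.1%) and 3 were higher (background 24.4%). The part of anther or flower tissue in the members' values was not tested.

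The other members of the low set were AT5G62080, AT5G44540, AT3G07450, MEE48, the defensin-like gene LCR66, the SKU5-similar gene sks18, the sugar transporter SWEET7 and AT4G29980. In decapitated WT against brc1-2 their log2 changes lay between -3.96 and -2.0, and all were called by edgeR. Except for AT5G62080, they met the limit on mean level only through brc1-2, so the choice favoured this direction. MEE48, LCR66, sks18, SWEET7 and AT4G29980 had 0 counts in intact WT. Against the floor of 3 counts they were at least 427-fold, 170-fold, 136-fold, 61.2-fold and 141-fold higher in brc1-2, and at least 37.0-fold, 26.1-fold, 21.6-fold, 14.4-fold and 35.3-fold higher after decapitation. AT3G07450 had 2 counts over intact WT, a ratio of 359 (95% counting interval 99.1 to 2970) in brc1-2 and of 29.8 (7.90 to 252) after decapitation. These bounds and intervals cover counting error only, and they take each count as an independent fragment. Low counts were mostly even, so a count may not be independent. The bounds would then be too high and the intervals too narrow. The set was short in exon length, at 360 to 1977 bases.

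AT1G44970 and AT4G16270 followed the same order at a smaller distance. AT1G44970 had 0.712, 0.610 and 0.792 CPM in intact WT, 17.0, 16.5 and 16.8 CPM in brc1-2 and 5.45, 5.62 and 6.15 CPM in decapitated WT. Its libraries formed 3 separate levels, and decapitated WT was below brc1-2 by -1.57 ± 0.09 (log2, edgeR adjusted p = 1.7e-14). AT4G16270 had 1.29, 0.923 and 0.755 CPM, then 9.41, 8.86 and 8.95 CPM, and 3.41, 3.27 and 4.11 CPM, and a log2 change of -1.36 ± 0.13 (edgeR adjusted p = 7e-10).

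Other members of low level in intact WT were not called between brc1-2 and decapitated WT. SWEET10, a sugar transporter, had 0.534, 0.801 and 0.736 CPM in intact WT, 3.70, 3.69 and 4.44 CPM in brc1-2 and 3.59, 3.16 and 3.01 CPM in decapitated WT. FAF2, of a family that affects shoot meristem size, had 1.86, 1.48 and 1.73 CPM, then 6.39, 6.02 and 5.93 CPM, and 5.32, 5.18 and 6.62 CPM. For SWEET10 all 3 brc1-2 libraries lay above the decapitated ones, and for FAF2 they overlapped. Their log2 changes of -0.30 ± 0.15 and -0.13 ± 0.12 were not called (edgeR adjusted p = 0.11 and 0.40), with unadjusted 95% intervals from -0.60 to 0.00 and from -0.36 to 0.11. The trehalase TRE1, also with all 3 brc1-2 libraries above, was at -0.31 ± 0.17 and not called (edgeR adjusted p = 0.14).

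At the opposite end, the largest differences toward decapitated WT were in members of low level. AT5G39580 had 0.455, 0.748 and 0.539 CPM in brc1-2 and 1.67, 1.08 and 0.780 CPM in decapitated WT, with 0.0791, 0.0697 and 0.147 CPM in intact WT. AT5G39580 met the limit of 1 CPM only through decapitated WT, so the choice favoured this direction. Its log2 change of 1.00 ± 0.34 (edgeR adjusted p = 0.017) also rested on single libraries. Without decapitated WT library 1 it was 0.65 (adjusted p = 0.19), without brc1-2 library 1 it was 0.86 (adjusted p = 0.077) and without brc1-2 library 2b it was 0.94 (adjusted p = 0.06). PDF1.4, a defensin-like gene, had 0.732, 1.17 and 1.33 CPM in intact WT, 2.41, 3.40 and 2.94 CPM in brc1-2 and 5.45, 5.06 and 5.98 CPM in decapitated WT. CSLA01, of the mannan synthase family, had 1.25, 0.853 and 0.571 CPM, then 2.49, 2.32 and 2.50 CPM, and 4.69, 4.54 and 4.36 CPM. In both, the groups formed 3 steps without overlap, and the last step was 0.88 ± 0.16 and 0.87 ± 0.17 (edgeR adjusted p = 3.5e-05 and 0.00011).

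Unnamed members of middle level gave tighter values. AT3G10310 had 7.48, 8.43 and 7.75 CPM in intact WT, 18.4, 18.5 and 16.4 CPM in brc1-2 and 29.6, 28.4 and 31.8 CPM in decapitated WT. The groups did not overlap, and the last step was 0.73 ± 0.06 (log2, edgeR adjusted p = 8.5e-11). AT5G48310 had a log2 change of 0.78 ± 0.06, and AT4G38062, AT3G44050 and AT3G20150 lay between 0.61 and 0.66, each called by edgeR and with the 3 decapitated libraries above the 3 brc1-2 libraries. Of the abundant unnamed members, AT5G55660 was lower after decapitation by a small margin (-0.12 ± 0.04, edgeR adjusted p = 0.013; not called without decapitated WT library 1 or 2 or brc1-2 library 1, adjusted p = 0.061, 0.079 and 0.089), and AT4G26190 was not called (-0.02 ± 0.04, edgeR adjusted p = 0.77).

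The other 14 gene lists hold no member. The backgrounds for the edgeR counts that follow were 24.4% of genes tested higher and 24.1% lower in decapitated WT than in brc1-2. Counts near these shares are no more than genes in general gave. In decapitated WT against brc1-2, 16 of 18 wound and jasmonate genes were higher by edgeR and 5 of 10 GRF and GIF genes. All 10 leaf photosynthesis genes and 11 of 13 secondary wall genes were lower. In these 4 lists 0 genes were called the other way by edgeR or DESeq2, also at an unadjusted p under 0.05. Of the 35 cuticle and epidermis genes 25 were lower and 3 higher. Dormancy and sugar starvation genes were lower in 11 of 19 and higher in 3. The auxin list had 14 higher and 13 lower of 35, cytokinin 9 and 3 of 24, gibberellin 3 and 6 of 12, expansin and XTH 10 and 13 of 27, meristem and polarity 14 and 6 of 37, and root 2 and 2 of 7. Over intact WT, the wound and jasmonate list had 1 gene higher and 10 lower in brc1-2, where the backgrounds were 30.4% and 30.5%. After decapitation the list had 6 higher and 6 lower, near the backgrounds of 29.4% and 33.5%. Its summed level was 1660 CPM in intact WT, 979 to 999 CPM in brc1-2 and 1650 to 1660 CPM in decapitated WT.

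In seedlings the rule asked only that a member not fall below L of -0.8 with rac-GR24, so the lower side of this comparison was limited by the choice. The clause left out CRK30, WYR and AT2G43870, with L of -0.80, -0.89 and -1.90. All 82 members are in the seedling table, 69 passed its filter, and 5 had 0 counts in all 6 seedling libraries, among them AT5G52160, MEE48 and SWEET10. L for rac-GR24 over DMSO had a median of -0.22, below 0 in 62 members, above 0 in 15 and at 0 in the 5 without counts. Over the genes at 1 CPM or more in axillary tissue the median was 0.00, with 49.4% below 0 and 50.3% above. In edgeR, 27 members were lower with rac-GR24 (background 11.7% of 21063 genes tested), 3 were higher (background 12.4%) and 39 were not called. The count of 27 became 16 without DMSO library 3 or without rac-GR24 library 2.

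NIT2, a nitrilase, had the largest L with rac-GR24, at 1.62, followed by CSLA01 at 1.56. The NIT2 DMSO libraries had 46.3, 83.8 and 67.1 CPM and the rac-GR24 libraries 199, 214 and 196 CPM, which do not overlap. The log2 change was 1.62 ± 0.14 (edgeR adjusted p = 1.5e-06). AT1G12805 (1.33 ± 0.36, adjusted p = 0.014) and CSLA01 (3.53 ± 0.86, adjusted p = 0.0076) were also called by edgeR at low levels. AT1G12805 was not called without DMSO library 1 or rac-GR24 library 2 (adjusted p = 0.053 and 0.088), nor CSLA01 without rac-GR24 library 1 (adjusted p = 0.051) or by DESeq2 with all libraries (3.43, adjusted p = 0.13).

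Among the lowest with rac-GR24 were SMC3 at 20.9, 23.3 and 25.2 CPM in DMSO and 15.3, 10.5 and 16.4 CPM in rac-GR24, and AT3G20150 at 20.4, 22.7 and 25.5 CPM against 16.5, 12.8 and 15.3 CPM. Their groups did not overlap, and the log2 changes were -0.73 ± 0.13 and -0.64 ± 0.10 (edgeR adjusted p = 0.00092 and 0.00041). AT1G49870 was at -0.78 and AT1G20720 at -0.65. PDF1.4 was at -0.84 and AT1G76740 at -0.65 (edgeR adjusted p = 0.039 and 0.021). The calls of PDF1.4 and AT1G76740 were lost in several omissions of 1 library, such as DMSO library 3 (edgeR adjusted p = 0.18 and 0.053). Of the 42 mitosis and cytokinesis genes, 23 were lower with rac-GR24 (background 11.7% of genes tested), and the member HIK was at -0.46 ± 0.10 (edgeR adjusted p = 0.0042).

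Member transcripts were long, a property that the rule did not use. The median total exon length was 3070 bases, against 1789 for genes at 1 CPM or more, and 28 members (34.1%) had at least 4000 bases, against 4.51% of those genes. The median number of exon blocks was 9 against 4. Members under 2000 bases were fewer, at 28.0% against 60.3%, and they include the AMS and ACOS5 set described above. Within the 82, the median length was 3516 bases for the 26 members higher after decapitation, 2397 for the 28 higher in brc1-2 and 3036 for the 28 not called.

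Length moved with the measurements in the whole axillary table. For genes under 1000 bases the median L was -0.08 in brc1-2 and -0.08 after decapitation, and for genes of at least 5000 bases it was 0.46 and 0.38. Members made up 0.155% of genes of 1000 to 2000 bases and 3.53% of genes of at least 5000. The 874 genes of at least 4000 bases, members left out, took 4.31% ± 0.0607 (SD, n = 3) of counts in intact WT, 5.47% ± 0.0509 in brc1-2 and 5.22% ± 0.287 in decapitated WT. Both groups lay above intact WT without overlap (exact permutation test, two-sided p = 0.1 each, the smallest that 3 against 3 allows, 0.2 adjusted over 4 comparisons). The shares of decapitated WT and brc1-2 overlapped and differed by -0.249 percentage points (exact permutation p = 0.4, also 0.4 adjusted). Decapitated WT library 3 stood apart from the other 2 at 5.55% against 5.06% and 5.05%. In seedlings the share was 6.49% ± 0.295 in DMSO and 6.80% ± 0.259 in rac-GR24 (exact permutation p = 0.3, 0.4 adjusted).

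With a smooth trend of L on exon length subtracted, 42 genes met the rule, 38 of them members, and 44 members fell under a limit. The members that stayed had a median length of 1681 bases and the others 4100. All 82 kept L above 0 in both comparisons, with smallest values of 0.68 in brc1-2 and 0.66 after decapitation. They had been chosen at L of at least 1, so nothing is read from their staying above 0. With the trend removed from each library, 31 members were higher after decapitation than in brc1-2 and 18 lower, in place of 26 and 28. NUA, CIP1, NET1A and RAD50 were then no longer called (edgeR, -0.03 each), POK2 was called higher (0.24, adjusted p = 3.1e-05), and AT1G67120 moved to 0.13 (adjusted p = 0.002). The part of transcript length in the members' values was not tested.

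**Figure D4:**
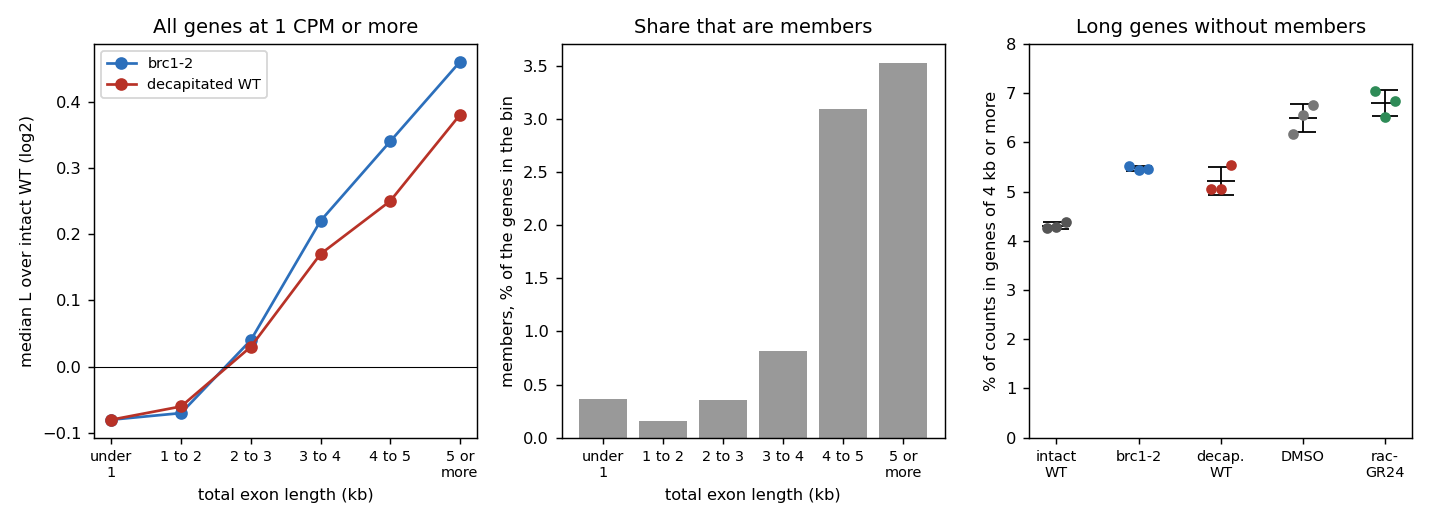
Left, median L over intact WT in 6 bins of total exon length for all genes at 1 CPM or more, rising from -0.08 to 0.46 in brc1-2 and to 0.38 in decapitated WT. Middle, the percentage of genes in each bin that are members, up to 3.53%. Right, the percentage of counts in non-member genes of at least 4000 bases in each library (points) with mean and SD of 3 libraries, lowest in intact WT at 4.31%.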

How the data were processed

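The deposited tables hold raw gene counts, 1 table for axillary tissue and 1 for seedlings, and give exon coordinates and lengths. Cutadapt 3.5, HISAT2 2.0.5, SAMtools 1.13, featureCounts 2.0.1 and the TAIR10 build are listed, without settings, in the submitters' processing notes. Use of strand in counting and the treatment of reads from close gene copies are not stated. In each library an excess of the counts from 1 to 20 was even (60.8% to 71.8%), so a count may not be an independent fragment. Groups came from the labels. Of the brc1-2 columns, 2 carry the same replicate number and are called 2a and 2b; pairs of libraries were compared over genes whose 2 counts summed to 20 or more. The seedling table ended in an incomplete line, which was left out.

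CPM was computed as count over the column sum. After filterByExpr, with a minimum count of 10 and a minimum total of 15, TMM factors were computed and the quasi-likelihood test of edgeR 4.0.16 was run in R 4.3.3, the 9 axillary libraries in one fit and the 6 seedling libraries in another, with Benjamini-Hochberg adjustment over all genes tested and a threshold of 0.05. The common biological coefficient of variation was 5.11% and 8.92%. SE was recovered from each log2 change and its F statistic. On simulated counts for decapitated WT against brc1-2 (21317 genes), 86% of the 1.5-fold changes and 93.9% of the 2-fold changes were found. The simulation gave every gene the common variation and took each count as an independent fragment, so these rates may not hold for the real counts.

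The members, tests and 16 gene lists (389 entries, written from general knowledge) were chosen with earlier results of these data known. Named members were drawn from those in a list, the 10 most abundant and the 10 with the largest smaller L. Others came from the 10 highest and 10 lowest in decapitated WT against brc1-2, and from those next to each limit. The 6 highest and 6 lowest with rac-GR24 were also drawn on. AT5G48430 and AT2G39518 met these rules and are not described above. ATK1, SMC2, ASY3, FANCM, LINC2, RAD50, NET1A, XIG, XID, WAVE5 and TRE1 were added for their roles after their values were seen. The other settings tried were DESeq2 1.42.0, limma-voom (limma 3.58.1), scaling by upper quartiles or by DESeq2 factors, other filters, halved counts, fits without the third group, omission of each library in turn, and a replicate block. Removal of a length trend was chosen after seeing the data. All 82 members matched the RefSeq gene table for symbols.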

Additional observations from a re-analysis of the deposited data

How the results depend on the processing

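In decapitated WT against brc1-2, the counts of members stayed within 1.5 times of 26 higher and 28 lower under every alternative except 1. With the length trend removed, a setting chosen after seeing the data, 18 were lower and 31 higher; the cause was not tested. Leaving out 1 axillary library gave 23 to 26 higher and 23 to 30 lower, and over all genes 4733 to 5325 higher and 4656 to 5168 lower. Of the 54 members called, 39 were called under every alternative that tested them and without each library. The 15 that were lost at least once had log2 changes of at most 1.00 in size, and 10 of them were lost with the length trend removed.

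The number of members depends on the rule's settings: 49 with a pseudocount of 1 CPM, 12 with L of at least 1.5, 202 with L of at least 0.8 and 42 with the length trend removed. Leaving out 1 library gave 73 to 94. With rac-GR24, leaving out 1 seedling library gave 16 to 34 members lower and 2 to 4 higher.

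Same-numbered libraries did not deviate together (correlations of 0.006 to 0.023 for decapitated and intact WT and -0.058 to 0.086 in seedlings), so the numbers were not taken to pair samples. With the replicate number as a block, 82 members were higher and 0 lower in decapitated against intact WT, and 3 were higher and 29 lower with rac-GR24. The rule chose members by the first of these comparisons, so its counts are no check on the block. No block could be fitted for decapitated WT against brc1-2, since the brc1-2 columns do not carry separate numbers. Members under 1 CPM in intact WT, 20 in all, rest on few counts there, which limits the precision of their folds.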
